A study of Mus musculus with 6 samples.

Results

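The genes described here carry out fatty acid beta-oxidation and ketogenesis in mouse liver. A list of 37 gene symbols was matched to the gene names of the deposited expression table, and all 37 were found among its 56534 genes or loci. On the mitochondrial side stood 18 members (the carnitine shuttle, the enzymes of the oxidation spiral and the electron transfer proteins), and on the peroxisomal side 14. The ketone body enzyme Bdh1 was taken alone, and Ppara, Creb3l3, Pdk4 and Vnn1 were taken as regulators and their targets. All 37 had a mean of at least 1 FPKM (fragments scaled to gene length and to the mapped total of the library) over the 6 libraries, the level at which 11104 genes were tested.

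Liver RNA was compared between LKO and CON mice of the strain C57BL/6, with 3 libraries in each group. LKO animals carry the genotype label CD36-/-, and the series title names the deletion as specific to hepatocytes. CON animals are labelled wild type. Every animal ate a diet with 60% of its energy as fat for 16 weeks. The sources used here give neither the driver of the deletion nor the sex and age of the animals, and do not state whether each library is 1 animal. Each p-value therefore measures only how far these libraries spread, and some of that may be technical. Cd36 encodes a membrane transporter of long-chain fatty acids, so the comparison asks how the liver's fatty acid oxidation genes are expressed when hepatocytes lack it.

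Long-chain fatty acids enter mitochondria as carnitine esters and are shortened in a repeated cycle of dehydrogenation, hydration, a second dehydrogenation and thiolysis. Peroxisomes run a similar cycle on very long, branched and dicarboxylic fatty acids and on bile acid intermediates, and hand the shortened products to mitochondria. In liver, much of the acetyl-CoA goes on to ketone bodies. The nuclear receptor PPARA, activated by fatty acids, induces many genes of both organelles in rodent hepatocytes.

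Cd36 itself was at 2.73, 3.70 and 10.22 FPKM in LKO libraries 1 to 3, against 61.95, 26.49 and 19.66 FPKM in CON libraries 1 to 3. The groups did not overlap, with LKO 3 nearest to CON. With a log2 fold change of -2.50 (SE 0.51), Cd36 missed the threshold of 0.05 after adjustment over all tested genes (limma, adjusted p = 0.163). The libraries held 10614 to 10768 genes at 1 FPKM or more in LKO and 10870 to 11311 in CON. The depth in reads is unknown, since the table holds no counts. Markers of hepatocytes (7 of 8 found and tested) summed to 46960 to 59910 FPKM in LKO and 53311 to 73653 FPKM in CON. Of these 7, 6 had a negative log2 fold change. Apoa1 was higher in LKO (0.72), at 16035.8 to 20480.5 FPKM against 9739.5 to 12585.8 FPKM in CON. After median-ratio scaling 3 of the 7 were negative and 4 positive. Markers of Kupffer cells and macrophages (8 of 8 tested) summed to 91.1 to 184 FPKM in LKO and 123 to 182 FPKM in CON, and those of endothelium (7 of 7 tested) to 53.1 to 78.0 FPKM in LKO and 39.9 to 108 FPKM in CON. Markers of stellate cells and fibroblasts (6 of 7 tested) summed to 80.2 to 119 FPKM in LKO and 84.0 to 92.3 FPKM in CON, and those of cholangiocytes (3 of 5 tested) to 34.1 to 74.9 FPKM in LKO and 29.4 to 51.5 FPKM in CON. Markers of lymphocytes and neutrophils (3 of 7 tested) summed to 3.47 to 7.07 FPKM in LKO and 6.06 to 11.7 FPKM in CON, with Ly6g listed at 0 in all 6 libraries. Each of these sums covers all markers found, tested or not. Of the adipocyte markers, Lep and Ucp1 were listed at 0 throughout and Adipoq at no more than 0.09 FPKM. The part of these cell types in the results below was not tested. In bulk liver, fewer hepatocytes and less RNA per hepatocyte cannot be told apart.

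Most fatty acid oxidation genes were listed at somewhat lower levels in LKO livers, on both the mitochondrial and the peroxisomal side, but none passed the threshold over all genes. Of the 37 members, 33 had a negative log2 fold change of FPKM + 1 (LKO minus CON) and 4 a positive one: Ehhadh, Etfb, Acaa1b and Cpt2. Most tested genes had that sign too, with 7954 of 11104 negative and 3150 positive. Values of the members ran from -0.91 for Hadh to 0.39 for Ehhadh, with a median of -0.36 beside -0.23 for all tested genes. At an adjusted p under 0.05 (limma), 0 members were lower and 0 higher, where 0.00901% and 0% of all tested genes were called. At an unadjusted p under 0.05, 11 members were lower, or 29.7%, beside 18.9% of all tested genes. In the higher direction 0 members reached it, beside 3.25% of all tested genes.

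All 3 LKO libraries were lower than all 3 CON libraries for 15 members, or 40.5%, beside 24.3% of all tested genes. The opposite order held for 0 members, beside 3.92%. These counts depend on how the libraries are scaled. Dividing each library by its median ratio to the mean library brought the median of all tested genes to 0.01. Then 23 members had a negative and 14 a positive log2 fold change, beside 5434 and 5670 of all tested genes. With that scaling, 6 members lay below CON without overlap and 6 above it, or 16.2% in each direction, beside 11.1% and 12.3% of all tested genes. With the trend of each library with gene length removed, 8 members lay below CON without overlap and 3 above it, beside 12.5% and 11.1% of all tested genes. After median-ratio scaling, Hadh was lower (log2 fold change -0.61) and Cpt2 higher (0.50) at an unadjusted p under 0.05 (limma). That is 2.7% of the members in each direction, beside 7.96% and 10.2% of all tested genes.

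**Figure D1:**
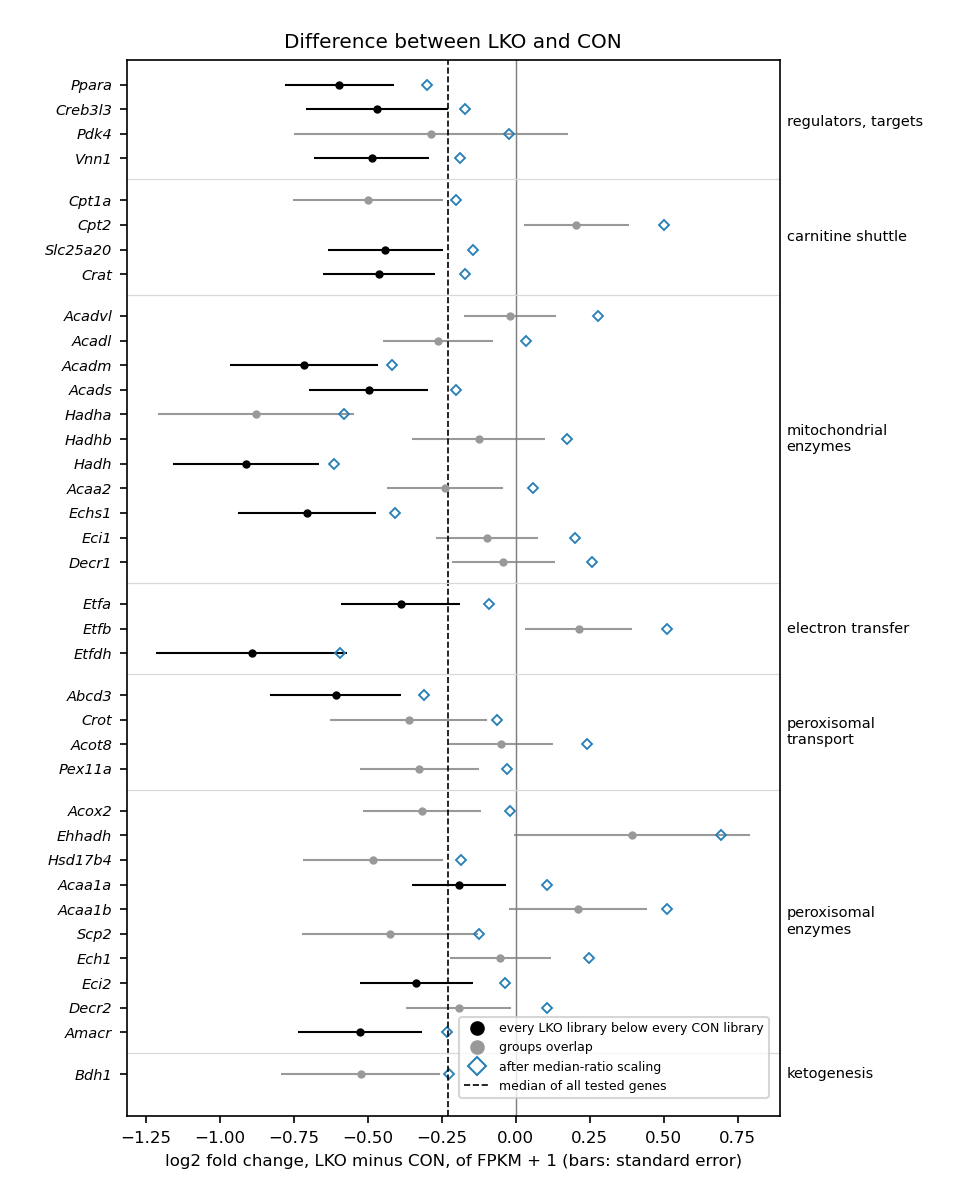
Log2 fold change (LKO minus CON, of FPKM + 1) of the 37 fatty acid oxidation genes with its standard error (n = 3 libraries each), in rows ordered by role. Black points mark the 15 genes with every LKO library below every CON library, open diamonds the value after median-ratio scaling, and the dashed line the median of all tested genes at -0.23.

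The libraries of the LKO group did not behave alike. LKO 2 was the lowest of all 6 libraries for 29 of the 37 members, or 78.4%, beside 48.6% of all tested genes. LKO 2 also had the largest share of FPKM in mitochondrially encoded genes, at 10.1%, beside 5.27% and 4.14% in LKO 1 and LKO 3 and 3.88% to 6.18% in CON. Major urinary protein genes took 23.9% to 29.4% of FPKM in LKO and 6.22% to 22.1% in CON. With both gene groups removed and the libraries rescaled, 11 members lay below CON without overlap and 2 above it, beside 20.1% and 4.42% of all genes then tested. LKO 1 was the lowest for 0 members and LKO 3 for 4. LKO 1, LKO 2 and LKO 3 lay below every CON library for 23, 31 and 20 members. These are 62.2%, 83.8% and 54.1% of the members, beside 51.0%, 62.0% and 40.7% of all tested genes. Above every CON library they lay for 6, 3 and 0 members, or 16.2%, 8.11% and 0%, beside 23.3%, 17.9% and 17.2% of all tested genes. The median deviation of the mitochondrial members from the mean of CON stood at -0.29, -0.65 and -0.09 in LKO libraries 1 to 3. For the peroxisomal members it stood at -0.09, -0.51 and -0.08, and for all tested genes -0.21, -0.38 and -0.11. LKO 3 thus deviated from CON about as far as the middle of all genes did on both sides.

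**Figure D2:**
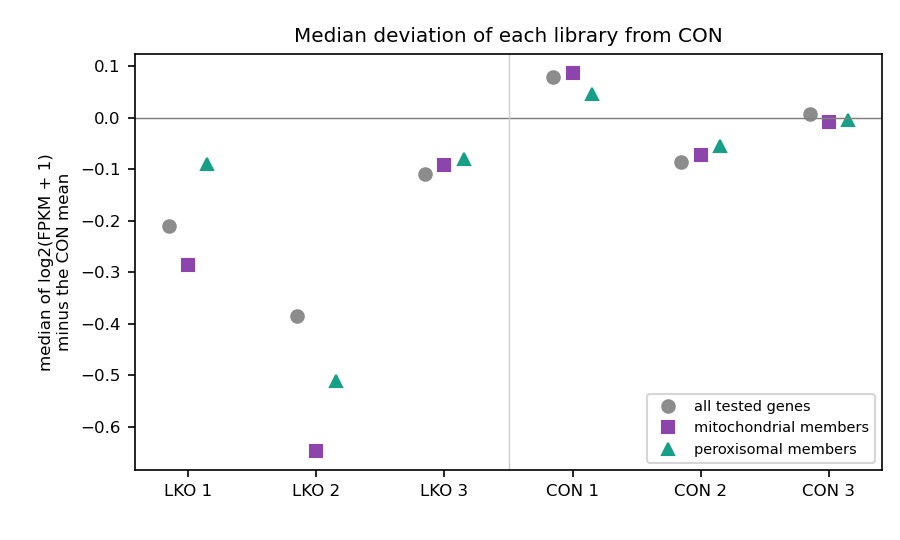
Median deviation from the CON mean, on the log2(FPKM + 1) scale, of the mitochondrial members (n = 18), the peroxisomal members (n = 14) and all tested genes in each library. LKO 2 lies lowest in all 3 sets, and LKO 3 lies within 0.11 of the CON mean in all 3.

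LKO 3 lay nearest to CON in the medians above. Leaving it out moved the median log2 fold change of all tested genes from -0.23 to -0.29. Of the fits that leave out 1 library, this one called the most genes, 2626 of 11104 (limma, adjusted p under 0.05). Without LKO 3, 10 members passed lower over all genes, or 27%, beside 19% of all tested genes, and 0 passed higher, beside 4.6%. They were Cpt1a, Acadm, Acads, Hadha, Hadh, Echs1, Etfdh, Abcd3, Bdh1 and Creb3l3, with adjusted p-values of 0.0143 for Hadha to 0.0435 for Abcd3. A trend with gene length ran along with the groups in that fit. The Spearman rho between the deviations of all tested genes and their length was -0.33 and -0.30 in LKO 1 and LKO 2 and 0.21 in LKO 3, against 0.27, 0.10 and 0.29 in CON libraries 1 to 3. With that trend also removed, in a setting added after the data were seen, 4 members passed without LKO 3: Hadha (-0.89), Etfdh (-0.85) and Acadm (-0.72) lower, and Cpt2 (0.57) higher. The 3 lower members are 8.11%, beside 5.86% of all tested genes, and the 1 higher member is 2.7%, beside 6.07%.

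Among the members, too, longer genes tended to have lower values. Across the 37 members the Spearman rho of the log2 fold change with gene length was -0.48, and across all tested genes it was -0.30. Etfb, the shortest member at 893 bases, had a log2 fold change of 0.21, and Cpt1a, at 4317 bases, had -0.50. Hadhb was an exception by its deposited length, the longest at 4388 bases, with a log2 fold change of -0.13. Deposited lengths of some members exceed that of their longest coding transcript in GENCODE M21. That transcript has 2048 bases for Hadhb, 1789 for Hadh and 2377 for Etfdh, but 4317 for Cpt1a and 4017 for Hadha, as deposited. The trend was not computed with transcript lengths. Genes share the libraries and are not independent, so these values describe the 6 libraries only. The part of the length trend in each difference below was not tested beyond the values after its removal.

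**Figure D3:**
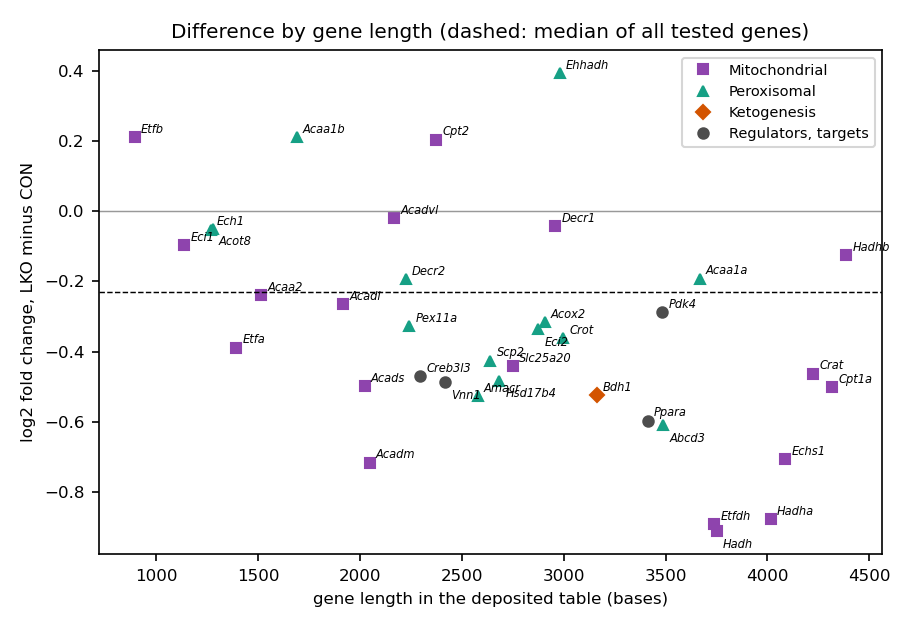
Log2 fold change (LKO minus CON) of each member against the length of its gene in the deposited table, with colours for mitochondrial, peroxisomal, ketogenesis and regulator genes. The lowest values belong to Hadh (3751 bases), Etfdh (3740 bases) and Hadha (4017 bases), and the shortest gene, Etfb (893 bases), lies at 0.21.

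Ppara was at 75.7, 55.8 and 70.0 FPKM in LKO libraries 1 to 3, against 101, 92.3 and 111 FPKM in CON libraries 1 to 3. All LKO libraries lay below all CON libraries. The log2 fold change was -0.60 (SE 0.18; limma, adjusted p = 0.18), and -0.30 after median-ratio scaling. An exact two-sided permutation test of the 6 values reached p = 0.1, below which 3 libraries against 3 cannot go. Creb3l3, a liver transcription factor held in the endoplasmic reticulum that acts with PPARA in fasting, was at 170, 127 and 236 FPKM in the LKO libraries. Its CON libraries were nearly equal, at 239, 237 and 240 FPKM, and LKO 3 lay just below them (log2 fold change -0.47, SE 0.24, limma adjusted p = 0.272).

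Vnn1, a pantetheinase gene induced by PPARA in mouse liver, was at 95.4, 69.8 and 66.5 FPKM in LKO libraries 1 to 3, against 103, 102 and 117 FPKM in CON libraries 1 to 3. The groups did not overlap (log2 fold change -0.49, SE 0.19, limma adjusted p = 0.212). Here LKO 1, not LKO 3, was nearest to CON. Pdk4, which encodes a kinase that shuts pyruvate out of the citric acid cycle, was the least abundant member. It was at 12.9, 4.56 and 11.1 FPKM in the LKO libraries, against 6.81, 8.87 and 20.9 FPKM in the CON libraries. The groups overlapped widely and the difference was smaller than its error (log2 fold change -0.29, SE 0.46).

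**Figure D4:**
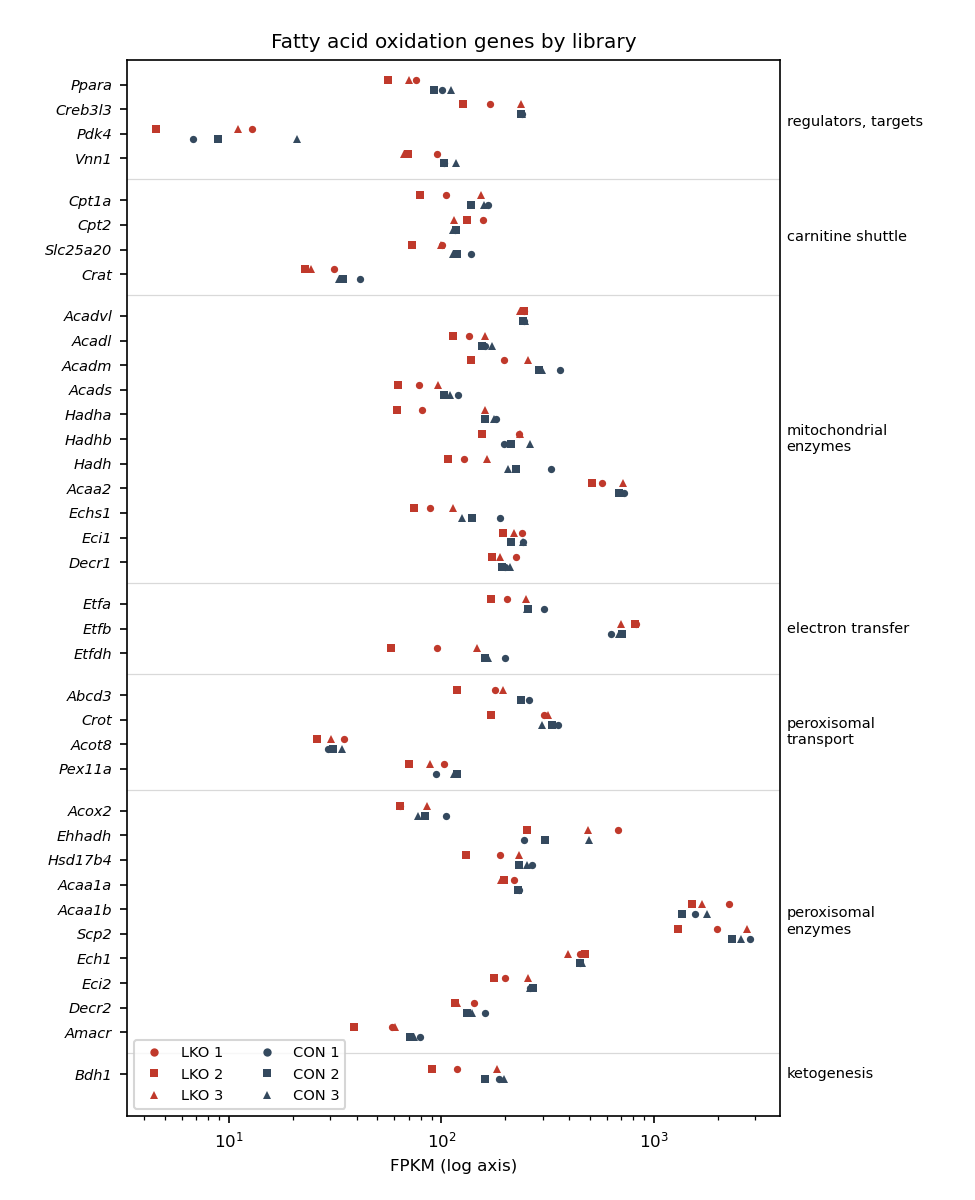
FPKM (log axis) of the 37 members in each library, LKO above CON in each row, with circles, squares and triangles for libraries 1, 2 and 3. Levels run from 4.56 FPKM for Pdk4 in LKO 2 to 2838 FPKM for Scp2 in CON 1.

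The carnitine shuttle showed unequal values at its opposite ends. Cpt1a, the outer membrane carnitine palmitoyltransferase that controls entry of long-chain fatty acids into mitochondria, was at 105, 78.9 and 153 FPKM in LKO libraries 1 to 3. Its level in CON libraries 1 to 3 was 166, 138 and 158 FPKM. LKO 1 and LKO 2 lay below every CON library, and LKO 3 lay among them (log2 fold change -0.50, SE 0.25, limma adjusted p = 0.269). Cpt2, which reforms acyl-CoA inside mitochondria, was at 157, 131 and 115 FPKM in the LKO libraries, against 116, 117 and 113 FPKM in the CON libraries. LKO 1 and LKO 2 lay above all CON libraries (log2 fold change 0.20, SE 0.18). The ratio of Cpt1a to Cpt2 was 0.67, 0.60 and 1.34 in LKO libraries 1 to 3, against 1.42, 1.18 and 1.40 in CON libraries 1 to 3. LKO 3 again lay among the CON libraries. A ratio within a library does not depend on scaling, but it can carry the trend with gene length. Cpt1a is 4317 bases long and Cpt2 2372, and no ratio with that trend removed is given. These ratios and those below were chosen after the values were seen and were not tested.

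Slc25a20, the carrier that swaps acylcarnitine for carnitine across the inner membrane, averaged 91.2 ± 15.8 FPKM in LKO and 123 ± 12.9 FPKM in CON (SD, n = 3 each), without overlap (log2 fold change -0.44). Crat, an acetyltransferase found in mitochondria and peroxisomes, averaged 26.2 ± 4.58 FPKM in LKO and 36.3 ± 4.49 FPKM in CON (SD, n = 3 each), also without overlap (-0.46). Neither passed over all genes (limma, adjusted p = 0.23 and 0.215).

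A binding motif of PPARA with its partner RXR is a direct repeat of AGGTCA with a spacer of 1 base (DR1). This repeat was searched on both strands, with up to 2 of its 12 fixed letters differing, in RefSeq promoter windows (GRCm38.p6, 250 bases before to 50 after a gene's start). Of the 37 members, 31 had a window, and 5 of these genes held a match: Acox2, Creb3l3, Echs1, Etfa and Slc25a20. That is 16.1% of the matched members, beside 4.40% of all 27025 genes with a window. The windows of Slc25a20 (chr9:108661886-108662185, plus strand) and Etfa (chr9:55512194-55512493, minus strand) are shown as examples with the match on either strand. They are 2 of the 4 genes with a match whose LKO libraries lay below CON without overlap, as for 24.3% of all tested genes. The others are Creb3l3 and Echs1. After median-ratio scaling the log2 fold changes were -0.14 for Slc25a20, -0.09 for Etfa, -0.17 for Creb3l3 and -0.41 for Echs1. A link between a match and a difference was not tested. Capitals mark the match, which is on the opposite strand in Etfa. A match is a description of letters and not a site of binding.
Slc25a20: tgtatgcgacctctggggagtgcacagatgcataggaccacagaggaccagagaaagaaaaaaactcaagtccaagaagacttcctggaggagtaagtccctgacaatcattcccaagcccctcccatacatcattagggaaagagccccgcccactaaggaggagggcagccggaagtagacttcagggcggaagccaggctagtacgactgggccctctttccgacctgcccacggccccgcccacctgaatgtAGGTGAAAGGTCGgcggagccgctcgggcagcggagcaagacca
Etfa: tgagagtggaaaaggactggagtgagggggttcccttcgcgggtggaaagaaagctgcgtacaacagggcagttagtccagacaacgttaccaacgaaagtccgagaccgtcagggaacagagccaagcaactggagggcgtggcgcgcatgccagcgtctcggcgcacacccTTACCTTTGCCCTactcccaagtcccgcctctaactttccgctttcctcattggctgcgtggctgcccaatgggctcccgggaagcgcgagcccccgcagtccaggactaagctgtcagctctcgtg

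The acyl-CoA dehydrogenases, which open the mitochondrial spiral, followed no single pattern. Acadm, for medium chains, was at 197, 138 and 255 FPKM in LKO libraries 1 to 3, against 362, 288 and 296 FPKM in CON libraries 1 to 3. The groups did not overlap (log2 fold change -0.72, SE 0.25, limma adjusted p = 0.193). Acads, for short chains, averaged 79.3 ± 17.2 FPKM in LKO and 111 ± 8.59 FPKM in CON (SD, n = 3 each), without overlap (-0.50, adjusted p = 0.214). Acadl, for long chains, averaged 136 ± 23.7 FPKM in LKO and 162 ± 9.58 FPKM in CON (-0.26). Acadvl, for very long chains, was nearly the same in all libraries, at 235 to 244 FPKM in LKO and 243 to 247 FPKM in CON (log2 fold change -0.02, SE 0.16). After median-ratio scaling Acadvl was at 0.28 and Acadl at 0.03.

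Hydration and the second dehydrogenation are the next steps of the spiral. Hadh, the 3-hydroxyacyl-CoA dehydrogenase for short and medium chains, was at 127, 107 and 164 FPKM in LKO libraries 1 to 3, against 326.5, 224 and 206 FPKM in CON libraries 1 to 3. Every LKO library was lower than every CON library. Its log2 fold change of -0.91 (SE 0.25) had the smallest p of the members, but did not pass (limma, adjusted p = 0.176). With length and GC trends removed it was -0.62. Echs1, the short-chain enoyl-CoA hydratase, was at 88.1, 74.5 and 113 FPKM in the LKO libraries, against 188, 139 and 124 FPKM in the CON libraries. Its groups did not overlap either (log2 fold change -0.71, SE 0.23, limma adjusted p = 0.187).

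Hadha and Hadhb encode the alpha and beta subunits of the mitochondrial trifunctional protein, which runs the last steps of the cycle on long chains. Hadha was at 81.3, 61.6 and 161 FPKM in LKO libraries 1 to 3, against 180, 161 and 176 FPKM in CON libraries 1 to 3. LKO 3 reached the CON range and the other LKO libraries lay far below it (log2 fold change -0.88, SE 0.33, limma adjusted p = 0.204). Hadhb was at 232, 155 and 235 FPKM in the LKO libraries, against 198, 213 and 260 FPKM in the CON libraries, with overlapping groups (log2 fold change -0.13, SE 0.23). The ratio of Hadha to Hadhb was 0.35, 0.40 and 0.69 in LKO libraries 1 to 3, against 0.91, 0.75 and 0.68 in CON libraries 1 to 3. Hadhb values are uncertain, since 61.5% of the 50-base words of its longest coding transcript also occur in Gm13910. Gm13910 had 17.97, 11.77 and 34.31 FPKM in the LKO libraries, against 26.57, 21.07 and 22.32 FPKM in the CON libraries.

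Hadha and Hadhb are read in opposite directions from starts that lie 273 bases apart in RefSeq (GRCm38.p6). The window of Hadhb is shown because the values of this pair differed although its promoters overlap. It spans chr5:30155003-30155302 on the plus strand, and capitals mark the 228 bases that also lie in the window of Hadha. The DR1 motif, searched as above, had no match in either window.
Hadhb: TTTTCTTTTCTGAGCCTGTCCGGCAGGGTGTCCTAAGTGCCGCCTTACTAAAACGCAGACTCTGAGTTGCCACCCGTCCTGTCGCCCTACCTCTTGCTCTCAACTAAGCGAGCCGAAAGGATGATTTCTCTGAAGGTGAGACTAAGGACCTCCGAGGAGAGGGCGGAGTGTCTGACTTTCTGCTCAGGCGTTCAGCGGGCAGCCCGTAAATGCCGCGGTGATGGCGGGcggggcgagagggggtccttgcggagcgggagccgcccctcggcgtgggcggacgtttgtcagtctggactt

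Acaa2, the mitochondrial thiolase and the most abundant enzyme of the mitochondrial spiral listed here, averaged 598 ± 103 FPKM in LKO and 700 ± 20.5 FPKM in CON (SD, n = 3 each; log2 fold change -0.24). Eci1 and Decr1, which prepare unsaturated fatty acids for the spiral, averaged 218 ± 22.1 and 196 ± 26.0 FPKM in LKO. In CON they averaged 233 ± 17.0 and 201 ± 9.49 FPKM (SD, n = 3 each). Their differences, -0.10 and -0.04 on the log2 scale, were smaller than their errors. Over the 11 spiral enzymes, all log2 fold changes were negative (median -0.26), and after median-ratio scaling 5 were negative (median 0.03).

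Electron transfer from the dehydrogenases to the respiratory chain runs over the flavoprotein subunits Etfa and Etfb and the oxidoreductase Etfdh. Etfdh was at 94.8, 57.8 and 147 FPKM in LKO libraries 1 to 3, against 198, 161 and 165 FPKM in CON libraries 1 to 3. The groups did not overlap (log2 fold change -0.89, SE 0.32, limma adjusted p = 0.196). Etfa averaged 207 ± 39.7 FPKM in LKO and 270 ± 28.1 FPKM in CON (SD, n = 3 each), also without overlap (-0.39). Etfb had the opposite sign, at 823, 818 and 698 FPKM in the LKO libraries, against 627, 703 and 686 FPKM in the CON libraries (log2 fold change 0.21, SE 0.18). The ratio of Etfa to Etfb was 0.25, 0.21 and 0.36 in LKO libraries 1 to 3, against 0.48, 0.36 and 0.37 in CON libraries 1 to 3. Each LKO library lay below each CON library, LKO 3 by little. Etfb shares 67.3% of its 50-base words with the annotated locus Gm45233, which was listed at 0.27 FPKM or less in every library.

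**Figure D5:**
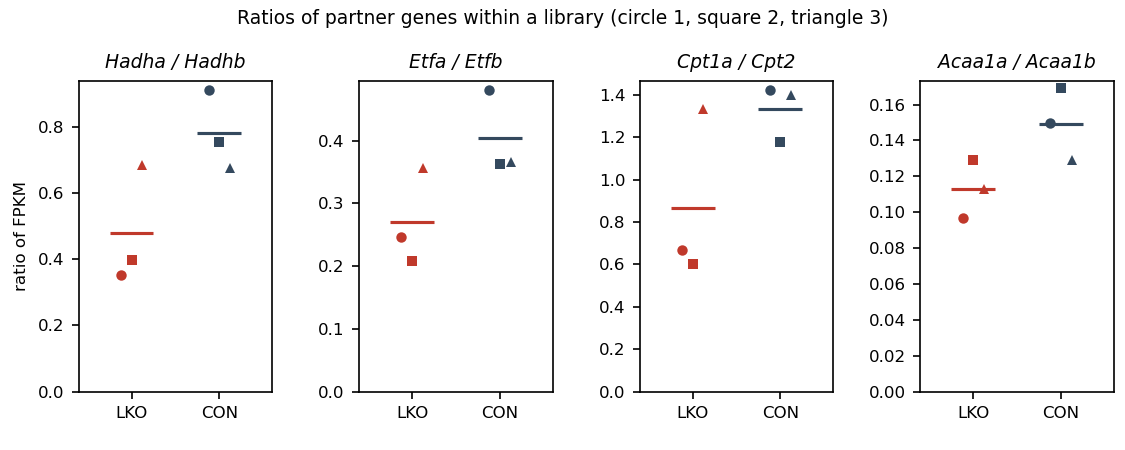
Ratios of FPKM between partner genes within each library, with LKO left of CON, 1 point per library and a bar at the group mean. For Hadha to Hadhb, Etfa to Etfb and Cpt1a to Cpt2, LKO 1 and LKO 2 lie apart from CON and LKO 3 lies near it, while for Acaa1a to Acaa1b LKO 2 lies nearest to CON.

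On the peroxisomal side the lowest log2 fold changes were those of Abcd3 and Amacr. Abcd3, the transporter that brings acyl-CoA into peroxisomes, was at 178, 118 and 194 FPKM in LKO libraries 1 to 3, against 259, 237 and 237 FPKM in CON libraries 1 to 3. All LKO libraries were lower (log2 fold change -0.61, SE 0.22, limma adjusted p = 0.197). Amacr, the racemase for branched fatty acids and bile acid intermediates, was at 58.7, 38.7 and 60.5 FPKM in the LKO libraries, against 78.9, 71.3 and 74.5 FPKM in the CON libraries. Here as well the groups did not overlap (log2 fold change -0.53, SE 0.21, limma adjusted p = 0.212).

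Hsd17b4, the D-bifunctional protein that hydrates and dehydrogenates branched and very long chains, was at 189, 130 and 231 FPKM in LKO libraries 1 to 3, against 266, 230 and 254 FPKM in CON libraries 1 to 3. LKO 3 just reached the lowest CON library (log2 fold change -0.48, SE 0.24, limma adjusted p = 0.257). Eci2, an enoyl-CoA isomerase of both organelles, was at 200, 177 and 256 FPKM in the LKO libraries, against 262, 268 and 261 FPKM in the CON libraries. All LKO libraries were lower, LKO 3 by little (log2 fold change -0.34, SE 0.19, limma adjusted p = 0.306).

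Ehhadh, the L-bifunctional enzyme and a classic PPARA target in rodents, was the member with the highest log2 fold change and a wide spread. It was at 675, 253 and 490 FPKM in LKO libraries 1 to 3, against 244, 307 and 493 FPKM in CON libraries 1 to 3. The groups overlapped widely, and the difference was within its error (log2 fold change 0.39, SE 0.40, limma adjusted p = 0.543). The ratio of Ehhadh to Hsd17b4 was 3.58, 1.95 and 2.12 in the LKO libraries, against 0.92, 1.33 and 1.94 in the CON libraries. LKO 2 and CON 3 were nearly equal in it.

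Acaa1a and Acaa1b encode 2 close copies of the peroxisomal thiolase, of which Acaa1b was much the more abundant. Acaa1b was at 2255, 1515 and 1690 FPKM in LKO libraries 1 to 3, against 1558, 1352 and 1768 FPKM in CON libraries 1 to 3, with overlap (log2 fold change 0.21, SE 0.23). Acaa1a was at 219, 196 and 190 FPKM in the LKO libraries, against 233, 229 and 228 FPKM in the CON libraries. Its groups did not overlap (log2 fold change -0.19, SE 0.16), but after median-ratio scaling its value was 0.11. The ratio of Acaa1a to Acaa1b was 0.097, 0.13 and 0.11 in the LKO libraries, against 0.15, 0.17 and 0.13 in the CON libraries, with LKO 2 and CON 3 nearly equal. The copies share 34.0% of the 50-base words of Acaa1a and 35.6% of those of Acaa1b, so reads may have been split between them and single values are uncertain.

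The promoter windows of these copies (RefSeq, GRCm38.p6) are shown because the genes differ in level. That of Acaa1a spans chr9:119341044-119341343 on the plus strand and that of Acaa1b chr9:119157044-119157343 on the minus strand. In a global alignment with gaps 153 of 322 columns were identical, or 47.5%. No other pair of windows was aligned, so whether this exceeds the share for unrelated windows is not known. Capitals mark CCAAT on either strand (CCAAT or ATTGG), which occurred 4 times in each window, with 1 overlapping pair in Acaa1b. Windows with 4 or more matches were found for 1.23% of all genes with a window.
Acaa1a: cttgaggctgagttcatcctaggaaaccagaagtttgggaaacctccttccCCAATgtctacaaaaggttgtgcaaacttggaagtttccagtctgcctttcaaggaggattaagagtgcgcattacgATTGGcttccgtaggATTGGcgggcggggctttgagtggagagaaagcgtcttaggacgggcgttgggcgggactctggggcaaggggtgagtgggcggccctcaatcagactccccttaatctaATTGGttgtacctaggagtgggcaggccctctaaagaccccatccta
Acaa1b: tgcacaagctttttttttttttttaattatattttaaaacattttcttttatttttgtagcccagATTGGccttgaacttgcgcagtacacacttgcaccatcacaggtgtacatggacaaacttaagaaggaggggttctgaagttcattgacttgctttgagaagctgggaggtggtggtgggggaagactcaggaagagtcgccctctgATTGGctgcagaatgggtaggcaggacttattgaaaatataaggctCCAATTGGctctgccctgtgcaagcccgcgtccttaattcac

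Scp2, which encodes sterol carrier protein and a thiolase for branched chains, had the highest level of all members. It was at 1985, 1292 and 2745 FPKM in LKO libraries 1 to 3, against 2838, 2335 and 2574 FPKM in CON libraries 1 to 3 (log2 fold change -0.43, SE 0.30). LKO 3 lay among the CON libraries. Its words occur to 41.4% in the pseudogene Scp2-ps2, which was at 6.72 to 13.03 FPKM in LKO and 5.24 to 6.29 FPKM in CON. The remaining peroxisomal members all had overlapping groups. Acox2, an oxidase of branched chains and bile acid intermediates, had a log2 fold change of -0.32, Crot, which exports shortened chains as carnitine esters, of -0.36, and Pex11a, a factor of peroxisome division, of -0.33. Decr2, a reductase for unsaturated chains, was at -0.19. Ech1, a dienoyl-CoA isomerase, and Acot8, an acyl-CoA thioesterase, were both at -0.05. Part of the transcripts of Acadvl (24.0% of words) and Acot8 (17.7%) lies opposite the neighbouring genes Dvl2 and Snx21, and no strand setting is given in the sources used here. Dvl2 was listed at 0.84 to 1.47 FPKM and Snx21 at 2.38 to 4.60 FPKM over the 6 libraries.

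The peroxisomal members had a median log2 fold change of -0.32, with 12 of 14 negative, and the mitochondrial members one of -0.42, with 16 of 18 negative. After median-ratio scaling these medians were -0.03 and -0.12, with 8 and 10 members negative. Of all 11104 tested genes, 7954 were negative as deposited and 5434 after median-ratio scaling. The difference between the sides was not tested. Leaving out Crat, Eci2, Ech1 and Amacr, which work in both organelles, gave medians of -0.32 and -0.39. The summed FPKM of the peroxisomal members was 6856, 4637 and 6889 in LKO libraries 1 to 3, against 6931, 6175 and 7011 in CON libraries 1 to 3. For the mitochondrial members it was 3732, 3188 and 4026 in the LKO libraries, against 4530, 4139 and 4261 in the CON libraries. On the mitochondrial side all LKO sums lay below all CON sums as deposited, and on the peroxisomal side they overlapped. These sums depend on scaling, and scaled sums are not given. After median-ratio scaling, the median deviation of the mitochondrial members from CON was -0.02, -0.17 and 0.06 in LKO libraries 1 to 3. In CON libraries 1 to 3 it was -0.01, 0.03 and -0.02, so the groups overlapped.

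Bdh1, which turns acetoacetate into beta-hydroxybutyrate in liver mitochondria, was at 118, 89.9 and 183 FPKM in LKO libraries 1 to 3, against 186, 160 and 197 FPKM in CON libraries 1 to 3. LKO 3 lay within the CON range (log2 fold change -0.52, SE 0.27, limma adjusted p = 0.271). Other enzymes of ketogenesis are not analysed here.

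Other genes of the pathway, from lists that hold no member, gave values of similar size. Of 24 tested genes of other fatty acid oxidation steps, 0 passed over all genes (limma), and 6 were lower and 0 higher at an unadjusted p under 0.05, beside 18.9% and 3.25% of all tested genes. Their median log2 fold change was -0.30, with 18 negative and 6 positive, and -0.049 after median-ratio scaling, with 13 negative and 11 positive. Bdh2, a cytosolic hydroxybutyrate dehydrogenase, averaged 4.23 ± 0.65 FPKM in LKO and 7.46 ± 0.93 FPKM in CON (SD, n = 3 each). Nudt19, a hydrolase of coenzyme A, averaged 16.4 ± 4.64 FPKM in LKO and 26.9 ± 4.23 FPKM in CON.

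Of 15 genes for peroxins, the proteins that build peroxisomes, 0 passed over all genes (limma), and 7 were lower and 0 higher at an unadjusted p under 0.05, against the same background of 18.9% and 3.25%. Their median was -0.44, and -0.15 after median-ratio scaling. Pex7, the receptor that imports thiolase, averaged 20.5 ± 7.08 FPKM in LKO and 40.1 ± 9.17 FPKM in CON (SD, n = 3 each). Pex3, which seeds the peroxisome membrane, averaged 7.21 ± 1.53 FPKM in LKO and 12.2 ± 3.07 FPKM in CON, and Pex19, its partner, 43.6 ± 13.4 FPKM in LKO and 70.1 ± 11.9 FPKM in CON.

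From a list of PPARA partners, coregulators and related genes, which includes Sirt3 and Fgf21, 9 were tested. Of these, 0 passed (limma). At an unadjusted p under 0.05, 3 were lower and 0 higher, where all tested genes gave 18.9% and 3.25%. Their median was -0.35, and -0.15 after median-ratio scaling. Sirt3, the mitochondrial deacetylase, was at 40.7 to 42.5 FPKM in LKO and 59.4 to 82.9 FPKM in CON, without overlap (log2 fold change -0.69, SE 0.18, adjusted p = 0.176). The coregulator genes Ncoa1 and Ncor1 had log2 fold changes of -0.57 and -0.60 with overlapping groups. Fgf21, a hormone gene induced by PPARA and singled out after its values were seen, was at 316, 58.4 and 44.8 FPKM in LKO libraries 1 to 3, against 17.7, 48.3 and 148 FPKM in CON libraries 1 to 3. Like Ehhadh, it was highest in LKO 1 and lowest in CON 1, with overlapping groups.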

How the data were processed

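Liver RNA was sequenced in 3 LKO and 3 CON libraries. The authors deposited FPKM per gene and library, rounded to 2 decimals, with a length in bases per gene. Per the submitters' processing notes, HISAT2 and StringTie were used with the mouse build mm9. The sources used here name no versions, options, annotation or strand setting. Of 56536 lines, 2 held no values and were dropped. Whole reads could not be recovered (in no library were more than 24.8% of low values within 0.1 of a whole multiple of 1 step), so no count test was run and the depth is unknown.

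The 11104 genes averaging 1 FPKM or more were taken to log2(FPKM + 1) and compared between LKO and CON with limma 3.58.1 in R 4.3.3 (lmFit and a trended eBayes, two-sided, with no covariate). Benjamini-Hochberg adjustment ran over all of them, and the threshold was 0.05. A fold change on this scale understates the change of low genes. Errors of log2 fold changes are moderated (SE), and those of FPKM means are SDs of 3 libraries. The fit was tested on simulated data.

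Cd36, Ppara, Cpt1a, Ehhadh, Bdh1 and Pdk4 are given in every library, as are the 4 genes with the smallest unadjusted p among mitochondrial members, peroxisomal members and regulators. Up to 3 genes of each other list are named by smallest p. Of these, 1 gene is not reported here. Other values given in full were chosen after they were seen. The members and lists were chosen with earlier results of these data known. Words of 50 bases and GC content come from GENCODE M21 transcripts, and promoters from RefSeq (GRCm38.p6). Promoter coordinates are on that build, which differs from the mm9 of the deposited values.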

Additional observations from a re-analysis of the deposited data

How the results depend on the processing

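A total of 18 alternative settings were tried, of which 2 were chosen after seeing the data: the removal of length and GC trends, and the removal of the length trend without LKO 3. Over all genes, 1 gene passed the threshold (limma). The count was 0 with a pseudocount of 0.1, with no filter on low values, with a minimum mean of 5 FPKM, with the length trend removed, and with length and GC trends removed. At an unadjusted p under 0.05 it was 2099 lower and 361 higher in the original fit. With the library number as a replicate block, 0 genes passed the threshold of the adjusted p, with or without the length trend removed. Leaving out 1 library at a time gave 0 to 2626, the highest without LKO 3, and 1325 with the length trend removed and LKO 3 left out. Array weights gave 5864, but their estimation did not converge and put a weight of 13.8 on LKO 1 beside 0.20 to 1.53 on the others.

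Among the members 0 passed. The count was 22 with array weights, beside 5864 of all 11104 tested genes. Leaving out 1 library at a time it was 0 to 10, the 10 without LKO 3 beside 2626 of all tested genes. With the length trend removed and LKO 3 left out it was 4, beside 1325. Members with groups not overlapping were 15, all lower, beside 24.3% of all tested genes lower and 3.92% higher. No share of all genes is given for settings that leave out 1 library, where 2 libraries set against 3 separate more easily. In them the members without overlap were 15 to 25, and 23 (18 lower, 5 higher) with the length trend removed and LKO 3 left out. They were fewer with median-ratio scaling (6 lower, 6 higher), quantile normalization (9 lower, 2 higher), mitochondrial and major urinary protein genes removed (11 lower, 2 higher), the length trend removed (8 lower, 3 higher) and both trends removed (8 lower, 2 higher). In the last 4 of these settings the groups of 13%, 20.1%, 12.5% and 12.6% of all genes did not overlap in the lower direction, and of 10.8%, 4.42%, 11.1% and 11.2% in the higher.

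The median log2 fold change of the mitochondrial members (-0.42) was -0.12 with median-ratio scaling, -0.18 with the length trend removed (with and without the replicate block) and -0.19 with length and GC trends removed. That of the peroxisomal members (-0.32) was -0.025, -0.076 (with and without the block) and -0.073 in these settings, -0.11 with array weights and -0.12 with the length trend removed and LKO 3 left out. These settings also move the median of all genes, which was -0.23 as deposited, 0.01 with median-ratio scaling, -0.014 with the length trend removed and -0.012 with both trends removed. Leaving out 1 library gave -0.47 to -0.27 and -0.40 to -0.16 for the 2 sides, with the value nearest 0 without LKO 2 in both.

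Single members whose log2 fold change turned positive had values of -0.29 to -0.02 as deposited, and none passed in that setting. With median-ratio scaling they were Acadvl (0.28), Decr1 (0.26), Ech1 (0.25), Acot8 (0.24), Eci1 (0.20), Hadhb (0.17), Acaa1a (0.11), Decr2 (0.10), Acaa2 (0.059) and Acadl (0.034). With quantile normalization they were Acot8 (0.14), Decr1 (0.060), Acadvl (0.050) and Eci1 (0.014). With the length trend removed, with or without the replicate block, they were Decr1 (0.21), Hadhb (0.18), Acadvl (0.17), Acaa1a (0.092) and Decr2 (0.0062). With length and GC trends removed they were Decr1 (0.25), Hadhb (0.20), Acadvl (0.17), Acaa1a (0.048), Pdk4 (0.029) and Decr2 (0.024). With array weights they were Decr1 (0.14), Acot8 (0.11), Eci1 (0.046) and Decr2 (0.023). With the length trend removed and LKO 3 left out they were Decr1 (0.29), Acadvl (0.23), Acaa1a (0.21), Hadhb (0.17) and Decr2 (0.082). Leaving out 1 library at a time, Acot8 ran from -0.15 to 0.052, Pdk4 from -0.59 to 0.15, Hadhb from -0.23 to 0.070, Decr1 from -0.14 to 0.040 and Ech1 from -0.11 to 0.023.

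Deviations of same-numbered libraries were weakly correlated (-0.05, 0.17 and 0.07 for numbers 1, 2 and 3), beside -0.16 to 0.06 for libraries of different numbers. Numbers 2 and 3 lay above that range and number 1 within it. The correlations were small, and the numbers were not taken as pairs. With 3 libraries a group and no counts, differences of the size listed for most members could not be told from the spread between libraries.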
